A study of Mus musculus with 8 samples.

Results

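Hlf, Mecom, Meis1, Gata2, Mycn, Nkx2-3, Mllt3, Procr, Fgd5 and Pdzk1ip1 are 10 genes whose transcripts are widely used to recognise hematopoietic stem cells (HSCs). They were taken by their symbols, and each of the 10 matched a single row among the 27998 genes that were counted. Single-cell RNA sequencing was carried out on hematopoietic stem and progenitor cells (HSPCs) of 16 C57Bl/6 wildtype mice aged 12 to 14 weeks, which carried no transgene or deletion. All mice were injected subcutaneously, the control mice with 100 µl of PBS and the treated mice with 50000 IU of recombinant mouse IFNα for each 20 g they weighed. Bone marrow was taken 3, 24 or 72 h after IFNα, with 4 mice per time point and 4 control mice. LK (Lin− cKit+) cells were sorted and topped up with LK CD150+ CD48− CD34− HSCs. The paper calls the ratio fixed but gives the number of added cells as a range. The sort therefore has a part in how many stem cells each mouse contributed. The 4 mice of a time point were told apart by hashtag antibodies and ran in 1 droplet library, and a time point therefore cannot be told apart from its library.

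After the filters on cells, 10046 cells remained, with 2474 from control mice, 1661 at 3 h, 3462 at 24 h and 2449 at 72 h. Their median depth was 18964.5 unique molecular identifiers (UMIs) in control and 12017 at 3 h, the shallowest library. Control mouse 4 contributed 58 cells and every other mouse between 330 and 1240, and 3 of the library pairs shared 1 cell barcode each. Control cells fell into 13 clusters, which were built without the 10 genes, and their labels were transferred to the treated cells. The HSC-like class was 1 cluster of 264 control cells led by Jchain, Ltb, Ly6a, Mzb1 and Gm19590, with Ly6a, Ltb and Gimap6 of the 19 HSC marker genes among its 10 genes of largest fold and all 19 detected. Control mouse 4 had 8 HSC-like cells, too few for its own value, so levels and tests in the HSC-like, megakaryocyte (MK) progenitor-like and erythroid progenitor-like classes use 3 control mice. In HSC-like cells all 6 interferon response genes used as a check of the treatment were higher at 3 h, with Mx1 up by 7.30 ± 0.33 on the log2 scale (SE, n = 4 treated mice against 3 control mice).

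HSCs sit at the top of blood formation. They divide rarely, renew themselves and give rise to all blood lineages, and interferons released during infection are known to push them from rest into division. A small network of transcription factors keeps the stem cell state. Hlf is a PAR bZIP factor that preserves resting HSCs. Mecom, which encodes Evi1, is needed for long-term self-renewal. Meis1 is a homeobox partner of Hox and Pbx proteins. Gata2 is a zinc finger factor required for HSC survival and also active in mast cell and early megakaryocyte and erythroid progenitors. Mycn is the relative of Myc found in immature cells, and Nkx2-3 is a homeobox factor. Mllt3 (AF9) is a chromatin reader of the super elongation complex that sustains self-renewal. Procr encodes the surface receptor EPCR, used to sort HSCs. Fgd5 encodes a guanine nucleotide exchange factor whose locus has served to mark HSCs in reporter mice. Pdzk1ip1 (Map17) encodes a small membrane protein whose regulatory elements have likewise been used to tag HSCs.

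Positions are given on the GRCm38 (mm10) assembly from the GENCODE vM21 annotation. Hlf is at chr11:90336536-90390895 (− strand), Mecom at chr3:29951296-30548008 (−), Meis1 at chr11:18879817-19018985 (−) and Gata2 at chr6:88193891-88207032 (+). Mycn is at chr12:12936093-12941914 (−), Nkx2-3 at chr19:43612325-43615892 (+) and Mllt3 at chr4:87769925-88033364 (−). Procr is at chr2:155751117-155755471 (+), Fgd5 at chr6:91978878-92076004 (+) and Pdzk1ip1 at chr4:115088708-115093899 (+). UMIs of the 3′ protocol come from the transcript ends, so the counts do not separate the Mecom, Mllt3 or Gata2 start sites.

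RefSeq gave 13 promoters for the 10 genes, each from 250 bases before to 50 bases after a start site, on GRCm38.p6. They were searched on both strands for an interferon-stimulated response element (ISRE, GAAA, any 2 bases, GAAA), a gamma-activated site (GAS, TTCNNNGAA), an E-box of the Myc family (CACGTG) and a GATA site (AGATAA). Of the 13 promoters, 2 held a match, those of Mecom and Pdzk1ip1 given below, and both are shown. The Mecom window at chr3:30509710-30510009 (− strand) held the ISRE letters on the opposite strand, 192 bases before the start, within a run of T and C. The Pdzk1ip1 window at chr4:115088458-115088757 (+ strand) held an E-box 192 bases before the start. The capitals mark the matches, both sequences are written 5′ to 3′ on the gene's strand, and neither match is known to be a bound site.
Mecom: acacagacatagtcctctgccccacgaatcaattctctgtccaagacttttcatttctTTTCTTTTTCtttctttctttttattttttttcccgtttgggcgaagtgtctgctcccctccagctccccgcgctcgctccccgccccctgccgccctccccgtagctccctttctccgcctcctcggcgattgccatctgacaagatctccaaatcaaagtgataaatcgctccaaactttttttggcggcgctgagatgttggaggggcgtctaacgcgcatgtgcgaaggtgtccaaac
Pdzk1ip1: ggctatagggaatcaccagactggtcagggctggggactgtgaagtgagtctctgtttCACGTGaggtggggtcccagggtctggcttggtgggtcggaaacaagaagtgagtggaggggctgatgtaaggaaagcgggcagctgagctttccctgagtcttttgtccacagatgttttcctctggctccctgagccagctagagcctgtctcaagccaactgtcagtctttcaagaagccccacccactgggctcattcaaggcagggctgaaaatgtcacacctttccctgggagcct
Over all 32851 RefSeq promoters of this length, 3.44% held the ISRE letters, 8.30% the GAS, 7.15% the E-box and 11.2% the GATA site. The matches in the 13 promoters were not tested against these shares, nor was any link to the changes after IFNα.

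In control mice 9 of the 10 genes had their highest level in the HSC-like cluster, among the 12 control clusters with at least 50 cells. These levels are a description without a test, since clusters were compared with each other. Counts were summed per mouse and class and scaled to the total counts of the library (CPM) with TMM factors set within each class, and values are the mean ± SD over mice. Hlf reached 351 ± 46.9 CPM in the HSC-like class (n = 3), 102 ± 26.1 in lymphoid-primed multipotent progenitor (LMPP)-like cells (n = 4) and 88.5 ± 16 in MK progenitor-like cells (n = 3). The LMPP-like and MK progenitor-like levels of Hlf lay within each other's spread. Levels were low in myeloid (5.30 ± 0.535, n = 4) and erythroid progenitor-like cells (2.94 ± 2.80, n = 3), where the ranges of mean ± SD overlapped. Mecom followed the order HSC-like (83.8 ± 8.62 CPM), MK progenitor-like (33.0 ± 2.70) and LMPP-like (16.9 ± 4.45), and was below 1 CPM on average in the myeloid and erythroid classes. Nkx2-3 showed the same order with 63.8 ± 9.41, 20.0 ± 2.94 and 8.34 ± 1.56 CPM. It was close to 0 in the myeloid and erythroid classes.

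The other members were shared with MK progenitor-like cells to differing degrees. Meis1 reached 299 ± 12.8 CPM among HSC-like and 238 ± 26.9 CPM among MK progenitor-like cells, against 102 ± 13.1 in LMPP-like cells. Mycn was at 116 ± 18.1 and 104 ± 6.24 CPM in the HSC-like and MK progenitor-like classes, with overlapping ranges of mean ± SD. Pdzk1ip1 gave 184 ± 17.8 CPM in HSC-like and 155 ± 17.8 CPM in MK progenitor-like cells, 28.7 ± 4.96 in LMPP-like and 25 ± 3.27 in erythroid progenitor-like cells. Gata2 was the exception to the HSC-like peak. MK progenitor-like cells held 164 ± 26.6 CPM of Gata2, HSC-like cells 122 ± 13.9, LMPP-like cells 72.6 ± 43.5 and erythroid progenitor-like cells 70.2 ± 19.8. By cluster it was highest among the basophil, mast cell and eosinophil progenitor-like cells (468 CPM) and in an unnamed cluster led by Gzmb and Scin (425 CPM), against 128 CPM in the HSC-like cluster.

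Mllt3 also had an erythroid level. HSC-like cells held 133 ± 29.9 CPM, against 55.7 ± 18.6 in MK progenitor-like, 47.7 ± 6.63 in erythroid progenitor-like, 13.5 ± 3.94 in LMPP-like and 6.62 ± 1.89 in myeloid progenitor-like cells. The MK and erythroid ranges of mean ± SD overlapped. Procr was at 46.4 ± 4.39 CPM in HSC-like, 16.1 ± 1.78 in MK progenitor-like and 7.27 ± 2.19 in LMPP-like cells. Fgd5 was the rarest transcript in UMIs, with 4 to 44 UMIs per mouse among HSC-like cells, and gave 16.1 ± 4.16 CPM there, about 4 CPM in the LMPP-like (3.98 ± 3.46) and MK progenitor-like (4.12 ± 0.795) classes, and no UMI in control myeloid or erythroid progenitor-like cells.

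**Figure D1:**
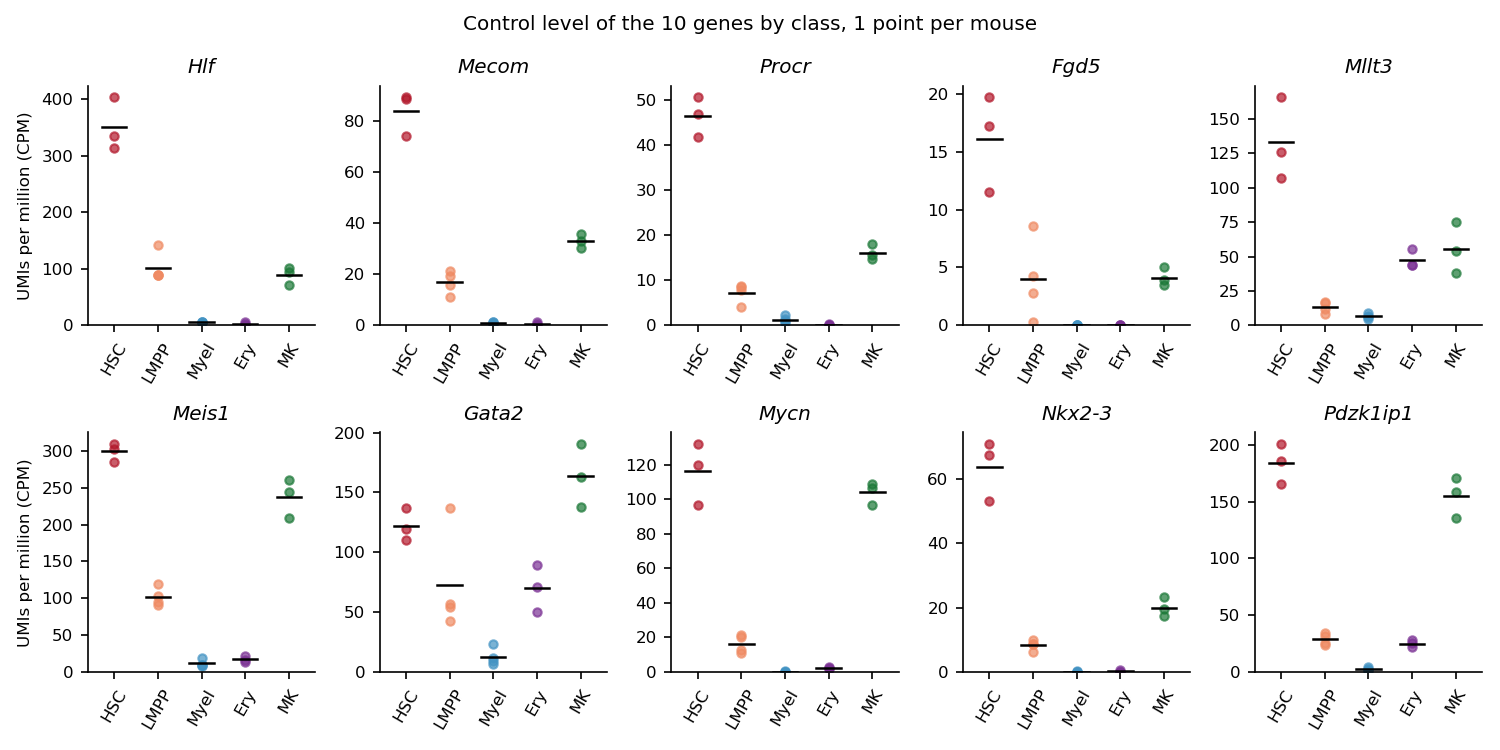
Level of each of the 10 genes by cell class in control mice, in CPM. Points are mice and bars the mean, with 3 or 4 mice per class. For 9 of the 10 genes the HSC-like class is highest, and Gata2 is highest in MK progenitor-like cells among these classes.

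Which genes behave most like a member across clusters was measured by the Pearson correlation of log2 CPM over the 12 control clusters, among 9344 genes. A small constant was added to each count, so where a gene had no UMI its value was set by the total of the cluster. The clusters share libraries and differ in depth, and the closest of 9344 genes are high by selection, so these values are descriptive. Among the members themselves the 45 pairs ranged from 0.354 to 0.960, with a median of 0.80. Among the 3 closest genes were Cand2 and Pglyrp2 for Hlf (0.979 and 0.975). The closest were Csgalnact1, Nfat5 and Klhdc1 for Mecom (0.988 to 0.983), Gm16141, Ctla2a and Stau2 for Meis1 (0.993 to 0.990) and Tox, Col4a1 and Cdk14 for Nkx2-3 (0.989 to 0.977). For Mycn they were Tmem230, Spred1 and Med12l (0.975 to 0.965), for Mllt3 Ormdl3, Usp32 and Arhgef12 (0.965 to 0.957), and for Gata2 Apoe, Rnase6 and Slc22a3 (0.975 to 0.958). For Procr they were Snn, Tnip3 and Casp12 (0.966 to 0.961), for Fgd5 Fam181b, Gm4951 and Gabarapl2 (0.985 to 0.972), and for Pdzk1ip1 Fdft1, Serpinb6b and Socs2 (0.974 to 0.961).

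The first question put to the time series was whether stem cells changed these genes after IFNα. At 3 h the HSC-like class had more Mecom and less Hlf, Meis1 and Mllt3 than in control, all by less than 2-fold. At 24 h no member passed the test, and at 72 h Mecom and Gata2 were higher. Each time point was compared with the same control mice in 1 edgeR quasi-likelihood fit over 9351 genes, with Benjamini-Hochberg adjusted p-values and a threshold of 0.05, so the time points are not independent of each other. At 3 h 4 of the 10 members passed, 1 higher and 3 lower, where 14.0% of all genes tested passed in either direction, 9.75% higher and 4.27% lower. The median log2 fold change of the 10 members was −0.24, 0.02 and −0.08 at 3, 24 and 72 h, beside −0.05, −0.01 and −0.01 over all genes tested.

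Mecom was at 73.8, 88.5 and 89.0 CPM in the 3 control mice and at 130, 130, 113 and 115 CPM in the mice at 3 h. It was at 98.6, 104, 110 and 107 CPM at 24 h and at 105, 91.6, 131 and 118 CPM at 72 h. Every treated mouse was above every control mouse. The log2 fold change was 0.55 ± 0.13 (SE) at 3 h (edgeR adjusted p = 0.0031) and 0.44 ± 0.12 at 72 h (adjusted p = 0.0352), and at 24 h the 0.34 ± 0.12 did not pass (adjusted p = 0.141). The rise at 3 h passed whichever mouse was left out, with the highest adjusted p at 0.0384, while that at 72 h was lost in 5 of 15 such fits, without control mouse 1, 2 or 3 or the mice 3 or 4 of 72 h, with an adjusted p of up to 0.265. With library size alone in place of TMM factors Mecom stayed positive at 3 h, at 0.34, but did not pass (adjusted p = 0.061), and at 72 h it did not pass with library size alone (adjusted p = 0.0796) or by the likelihood ratio test (adjusted p = 0.0672).

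Hlf was at 335, 313 and 403 CPM in control mice and at 327, 343, 220 and 222 CPM at 3 h. The values at 3 h split into 2 mice within the control range and 2 below it, and the log2 fold change was −0.37 ± 0.11 (edgeR adjusted p = 0.0257). It was at 326, 311, 362 and 309 CPM at 24 h and 317, 319, 287 and 314 CPM at 72 h, with 2 and 1 of 4 mice below the control range and no call (adjusted p = 0.743 and 0.482). The call at 3 h was lost without control mouse 3 or without mouse 3 or 4 of the 3 h group, with an adjusted p of up to 0.274.

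Meis1 was at 303, 285 and 310 CPM in control mice. It was at 281, 265, 224 and 218 CPM at 3 h, 238, 248, 266 and 243 CPM at 24 h and 244, 228, 238 and 282 CPM at 72 h. All 12 treated mice were below the lowest control mouse. The log2 fold change was −0.30 ± 0.09 at 3 h (edgeR adjusted p = 0.0287), −0.27 ± 0.09 at 24 h (adjusted p = 0.0844) and −0.28 ± 0.09 at 72 h (adjusted p = 0.0845), so that only the first passed. The 3 h call was lost without control mouse 1 or 3 or without mouse 3 or 4 of the 3 h group, with an adjusted p of up to 0.203.

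Mllt3 was at 126, 166 and 107 CPM in control mice and at 104, 111, 97.6 and 73.4 CPM at 3 h. At 3 h 3 of 4 mice lay below all control mice and the log2 fold change was −0.43 ± 0.14 (edgeR adjusted p = 0.0339). At 24 h it was at 167, 146, 160 and 164 CPM and did not pass, at 0.27 ± 0.12 (adjusted p = 0.281), and at 72 h it overlapped with control (−0.12 ± 0.12, adjusted p = 0.761). The 3 h call was lost without control mouse 1 or 2 or without mouse 3 or 4 of the 3 h group, with an adjusted p of up to 0.242. By DESeq2 the adjusted p-values of Hlf, Meis1 and Mllt3 at 3 h were 0.0598, 0.0581 and 0.0593, beside the threshold of 0.05, and with the members kept in the clustering Mllt3 did not pass (edgeR adjusted p = 0.0954).

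Gata2 was at 110, 119 and 137 CPM in control mice and within reach of these at 3 h (138, 123, 123 and 103 CPM) and 24 h (107.5, 121, 109 and 148 CPM). At 72 h it was at 163, 132, 160 and 192 CPM, above all control mice in 3 of 4. The log2 fold change at 72 h was 0.42 ± 0.12 (edgeR adjusted p = 0.0476). In the same HSC-like cells the 8 markers of basophil, mast cell and eosinophil (Ba/MC/Eo) progenitors, the class with the highest Gata2, summed to 56.4 to 197 CPM at 72 h against 7.87 to 61.0 CPM in control mice, and their part in this value was not tested. The call was lost in 9 of 15 fits without 1 mouse (control mouse 1 or 2, mouse 1, 2 or 3 of 3 h, mouse 2 of 24 h, and mouse 1, 3 or 4 of 72 h), with an adjusted p of up to 0.278. With library size alone it did not pass either (adjusted p = 0.106). At 72 h 2 of 10 members passed, both higher, where 3.28% of all genes passed, 2.22% higher. At 24 h 0 of 10 passed by edgeR, with 4 at an unadjusted p under 0.05 (Mecom, Meis1, Mllt3 and Procr), and 0 by DESeq2, where 2.97% of all genes passed by edgeR.

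The remaining members passed at no time point in this class. Mycn was at 120, 132 and 96.5 CPM in control and at 160, 177, 121 and 122 CPM at 3 h, with 2 of 4 mice above all control mice (log2 fold change 0.30 ± 0.13, edgeR adjusted p = 0.157). Nkx2-3 was at 53.1, 67.4 and 70.8 CPM in control and at 42.9, 34.9, 61.0 and 56.2 CPM at 72 h, with 2 of 4 below control (−0.35 ± 0.17, adjusted p = 0.391). Procr was at 46.9, 50.6 and 41.8 CPM in control and at 50.7, 66.1, 53.8 and 61.2 CPM at 24 h, where all 4 mice were above control and the test did not pass (0.35 ± 0.17, adjusted p = 0.374). Pdzk1ip1 was at 201, 185 and 165 CPM in control and at 132, 213, 143 and 96.5 CPM at 3 h, with 3 mice below and 1 above the control range (−0.32 ± 0.15, adjusted p = 0.157). It passed as lower with library size alone, without mouse 2 of 3 h and with the members kept in the clustering. Fgd5 was at 11.5, 19.7 and 17.2 CPM in control and at 15.1, 12.1, 6.97 and 8.39 CPM at 3 h (−0.64 ± 0.36, adjusted p = 0.284), with 2 of 4 mice below control, a value that rests on few UMIs. With the members kept in the clustering it passed as lower (−0.99). In that setting the members helped to choose the cells in which they were then tested, for Pdzk1ip1 as for Fgd5.

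**Figure D2:**
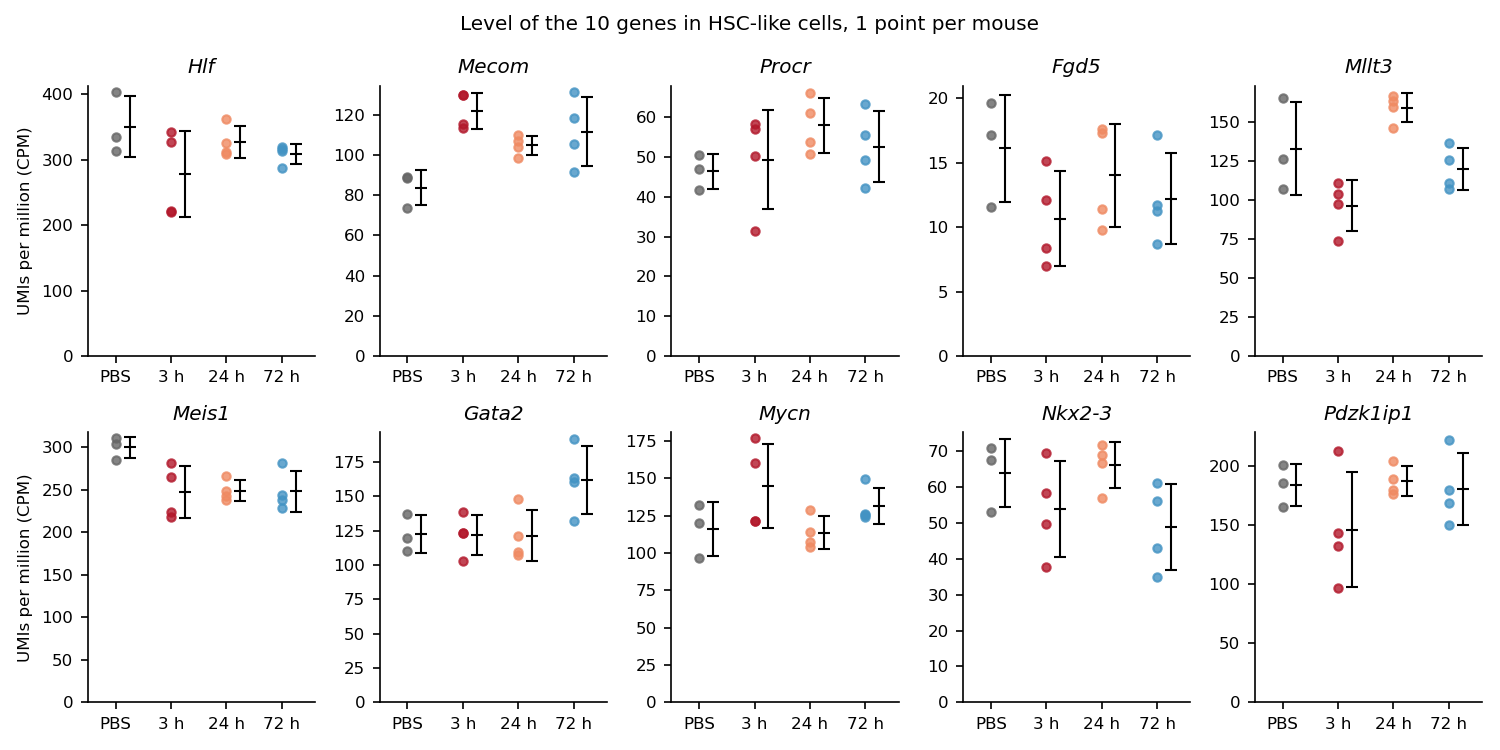
Level of each of the 10 genes in HSC-like cells by time point, in CPM; points are mice (3 in control, 4 at each time after IFNα) and bars the mean. Mecom is above control in all treated mice and Meis1 below it in all treated mice, while Hlf at 3 h splits between 327 and 343 CPM in 2 mice and 220 and 222 CPM in the other two.

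Depth and makeup of the HSC-like cells differed between libraries. They had a median of 8112.5 UMIs at 3 h, the lowest, against 10589 in control mice, 11466 at 24 h and 10316 at 72 h. The summed level of 8 MK progenitor markers, all detected, was 382 to 768 CPM in control mice and 241 to 402 CPM at 3 h. That of 4 B cell markers was 28.9 to 55.1 CPM in control and 0 to 5.75 CPM at 3 h, with Cd79a and Ebf1 at 0. It was also below control at 24 h (0.405 to 3.93 CPM) and at 72 h (0 to 6.20 CPM). The 19 HSC markers summed to 3675 to 4089 CPM in control and 8087 to 8662 CPM at 3 h. They were at 5609 to 6365 CPM at 24 h and 3597 to 3960 CPM at 72 h. These markers include Ly6a, which itself rose at 3 and 24 h in these cells, and its part in the sums was not tested. The 5 monocyte and dendritic markers summed to 85.4 to 199 CPM in control and 59.6 to 78.7 CPM at 3 h. Of 4 T and NK cell markers Cd3e and Cd3g were at 0 at 3 h, and the sum was 144 to 159 CPM in control and 71.8 to 98.8 CPM at 3 h. The 16 myeloid progenitor markers, 15 of them detected, summed to 890 to 1031 CPM in control and 859 to 1076 CPM at 3 h. The 14 erythroid progenitor markers summed to 903 to 1114 CPM in control, 1214 to 1362 CPM at 24 h, without overlap, and 1084 to 1402 CPM at 72 h. Among 7 endothelial genes Cdh5 was at 0 in control and at 3 and 24 h. The part of these differences in the results for the 10 genes was not tested.

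The share of cells with at least 1 UMI of a gene, after thinning each cell to 5000 UMIs, gave a second view of the same cells. Here 247 control, 322 3 h, 503 24 h and 445 72 h HSC-like cells entered, and 9, 30, 13 and 23 shallower cells were left out. No test was made. Hlf was detected in 68.1 ± 1.58% of control cells (SD, n = 3 mice). After IFNα (n = 4 each) this was 60.6 ± 3.45% at 3 h, 70.7 ± 4.6% at 24 h and then 64.7 ± 3.95% at 72 h. The shares at 3 h lay below all 3 control mice in every mouse (57.6 to 64.7% against 66.7 to 69.8%). Thinning gives cells equal totals, the scale of library size alone, on which the median of all genes was also lower at 3 h. The same share was not taken over all genes, so a fall particular to Hlf cannot be read from it. Without thinning the means were 80.7%, 69.5%, 86.6% and 77.9%. Meis1 gave 77.4 ± 7.89%, 61.0 ± 8.0%, 68.8 ± 0.299% and 65.0 ± 4.18%, and Mecom 31.4 ± 5.79%, 39.9 ± 5.20%, 37.4 ± 2.53% and 37.7 ± 2.34%, in the same order of time points. Per mouse, both Meis1 and Mecom overlapped with control at 3, 24 and 72 h. Control mouse 2 had Meis1 in 68.3% of its cells, and all 4 mice at 24 h were above this (68.5 to 69.2%). In myeloid progenitor-like cells thinned alike, Hlf was detected in 2.04 to 3.67% of cells on average, Meis1 in 4.17 to 7.0%, Gata2 in 3.40 to 7.76% and Mecom in 0.557 to 0.924%. This is a class in which HSC genes should be low, and its cells had a median of 25154.5 to 34924 UMIs before thinning.

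The shares of the remaining members in control HSC-like cells were below those of Hlf and Meis1. In control they were 47.8 ± 2.80% for Pdzk1ip1, 43.8 ± 4.77% for Gata2, 40.8 ± 12.5% for Mllt3, 34.3 ± 6.51% for Mycn, 26.4 ± 6.06% for Nkx2-3, 20.4 ± 4.08% for Procr and 8.27 ± 1.64% for Fgd5. At 24 h Pdzk1ip1 was at 55.4 ± 3.39% and Procr at 25.9 ± 0.878%. At 3 h Pdzk1ip1 spread widely, from 24.6 to 57.4% of cells between mice. Mllt3 was detected in 26.3 to 39.7% of cells at 3 h, overlapping with 28.4 to 53.3% in control. At 72 h Gata2 was detected in 45.5 ± 5.73% of cells, within the spread of control, although its summed level was higher there.

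Counted together, more members were detected per HSC-like cell than per cell of the other classes. At equal depth an HSC-like cell held transcripts of 3.99 ± 0.13 of the 10 genes on average in control mice. After IFNα it held 3.62 ± 0.32 at 3 h, 4.12 ± 0.11 at 24 h and then 3.90 ± 0.29 at 72 h. An MK progenitor-like cell held 3.04 ± 0.16 in control, an LMPP-like cell 1.68 ± 0.41, an erythroid progenitor-like cell 0.845 and a myeloid progenitor-like cell 0.218. In HSC-like cells 38.5 ± 2.32% of control cells held 5 or more, with 33.0 ± 6.88% at 3 h, 44.9 ± 0.902% at 24 h and 38.9 ± 5.62% at 72 h, and 2.10 to 5.34% held none. MK progenitor-like cells held 2.33 ± 0.16 at 3 h, 2.64 ± 0.15 at 24 h and 2.71 ± 0.13 at 72 h. No mouse at 3 h (2.21 to 2.56), 24 h (2.49 to 2.81) or 72 h (2.52 to 2.81) reached the lowest control mouse (2.86). These counts are on the scale of the thinned shares, and no such count was made over other genes. Hlf alone did not define the HSC-like class. Per mouse 20.0 to 27.9% of all cells had an Hlf UMI at equal depth, and of these cells 26.5 to 39.6% were HSC-like in control and 44.0 to 56.7% at 3 h.

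**Figure D3:**
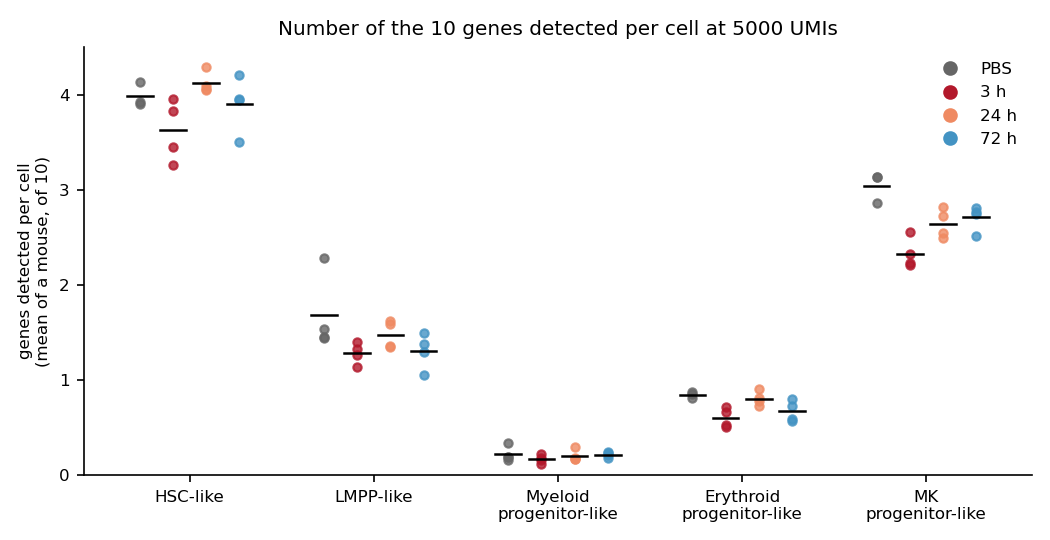
Mean number of the 10 genes detected per cell after thinning to 5000 UMIs, by class and time point; points are mice and bars the mean. HSC-like cells hold about 4 members per cell at each time, above MK progenitor-like (2.33 to 3.04 on average) and the other classes.

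Over the whole LK compartment 5 of the 10 members passed as higher at 3 h, 7 at 24 h and 9 at 72 h, beside a larger HSC-like share at 3 and 72 h. HSC-like cells made up 11.4 ± 2.65% of the cells in control mice, 20.6 ± 3.21% at 3 h, 14.8 ± 1.53% at 24 h and 19.0 ± 1.13% at 72 h (SD, n = 4 each). The difference was 9.27 percentage points at 3 h and 7.61 at 72 h, with 4 of 4 mice above all controls at both times, and exact permutation tests (two-sided) gave p = 0.0286 for each, the smallest p that 4 against 4 mice allow (adjusted p = 0.0429 over 3 time points). At 24 h the difference of 3.50 points did not pass (exact permutation p = 0.0857, adjusted p = 0.0857). When the 10 genes were kept in the clustering, an alternative added for the shares after seeing the data, the class was larger, at 17.8 ± 2.53% in control mice, and the differences were 15.1, 6.69 and 12.5 points at 3, 24 and 72 h. All 4 mice at 24 h (22.4 to 26.2%) were then above all control mice (14.5 to 20.7%), and each time point gave the smallest p (exact permutation p = 0.0286, adjusted p = 0.0286). The 10 genes helped to define this larger class. It took in a cluster with Dntt, Wfdc17 and Gm5111 among its 10 leading genes, which also lead an LMPP-like cluster of the main clustering. The numbers of sorted HSCs added to each sample have a part in these shares that was not tested. For its own clusters the paper says that the HSC increase at 3 h can be explained by this enrichment and by fewer captured cells.

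In the fit of the whole compartment 12042 genes were tested. The members that passed were all higher, where 38.8%, 28.3% and 37.4% of all genes tested passed in either direction and 19.7%, 14.5% and 18.9% of all genes tested passed and were higher. Mecom was at 13, 9.77, 12.3 and 14.8 CPM in control and reached 24.9, 26.6, 29.8 and 24.6 CPM by 3 h. Later it was at 18.4, 20.9, 18.7 and 16.1 CPM (24 h) and at 23.2, 21.1, 23.8 and 23.5 CPM (72 h). Every treated mouse was above every control mouse, and the log2 fold change of Mecom was 1.17 ± 0.11 at 3 h (edgeR adjusted p = 8.6e-09), the only member value past 2-fold in either fit (6.90% of all genes passed with such a change), 0.65 ± 0.10 at 24 h and 0.95 ± 0.10 at 72 h. Mycn was at 21.0, 19.3, 18.9 and 33.1 CPM in control and 36.5, 52.3, 41.2 and 28.9 CPM at 3 h. The fourth control mouse, the one with 58 cells, was above the lowest mouse at 3 h, and the log2 fold change was 0.97 ± 0.15 (adjusted p = 2e-05).

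Nkx2-3 was at 6.09 to 7.31 CPM in control mice and at 9.12 to 15 CPM at 3 h, with no overlap at any time, and rose by 0.80 ± 0.17, 0.70 ± 0.14 and 0.74 ± 0.15 on the log2 scale at 3, 24 and 72 h. Procr was at 3.48 to 6.58 CPM in control and 6.78 to 12.6 CPM at 3 h, and rose by 0.64 ± 0.23, 0.67 ± 0.18 and 0.67 ± 0.20 (edgeR adjusted p = 0.0305, 0.00945 and 0.0107). Its call at 3 h was lost without control mouse 2 or 3 or without mouse 2 of 3 h (adjusted p up to 0.178). Meis1 was higher at 3 h (0.29 ± 0.08, adjusted p = 0.0072) and at 72 h (0.36 ± 0.08, adjusted p = 0.00077). Hlf, Mllt3 and Pdzk1ip1 were higher at 24 and 72 h by 0.29 to 0.47 on the log2 scale. Gata2 was higher at 72 h (0.42 ± 0.12, adjusted p = 0.00782), and Fgd5 passed at no time (0.39 ± 0.25 at 72 h, adjusted p = 0.223). Some of these calls rested on single mice. At 24 h the call of Hlf was lost without control mouse 2 or without mouse 2 or 3 of 24 h (adjusted p up to 0.197), and that of Mllt3 without control mouse 2 or 3, mouse 1 of 3 h or mouse 1, 2 or 3 of 24 h (up to 0.180). The 24 h call of Pdzk1ip1 was lost in 9 of 16 such fits (control mouse 2 or 3, mouse 1 or 3 of 3 h, mouse 1, 2 or 3 of 24 h, and mouse 1 or 3 of 72 h, up to 0.216). Procr at 24 h was lost without control mouse 3 or mouse 2 of 24 h (up to 0.067) and at 72 h without control mouse 3 or mouse 3 of 72 h (up to 0.060). At 72 h the call of Mllt3 was lost without control mouse 2 or 3 or mouse 1 of 72 h (up to 0.0777), and that of Gata2 without control mouse 1 (0.0588). The calls of Mecom, Mycn and Nkx2-3 held in all 16 fits at each time point.

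When each mouse's clusters were weighted as in the control library, an alternative chosen after seeing the data, the whole-compartment values were smaller. Clusters in which a mouse had too few cells were left out, and its other weights were scaled up. Mouse 4 of 3 h thus used 77.8% of the control weights and control mouse 4 used 89.3%. At 3 h Mecom kept a positive value of 0.25 on the log2 scale, and of 0.15 without mouse 4 of 3 h. Meis1 gave −0.49, Procr −0.20, Nkx2-3 −0.092 and Mycn −0.032. At 72 h Mecom gave 0.09 and each of the other members a value below 0. Only the members were weighted, so how other genes would move is not known. These weighted values carry no test and are scaled by library size alone, a scale on which the unweighted ratios of these genes at 3 h were 0.93, 0.10, 0.64, 0.68 and 0.63 and which moved the median of all genes at 3 h by −0.15. Without control mouse 4, the one with 58 cells, weighted Mycn was above 0 at 3, 24 and 72 h (0.13, 0.02 and 0.08), as was Mllt3 at 24 h (0.03). In the unweighted sums, library size alone in place of TMM factors ended the calls of Procr and Meis1 at 3 h and of Hlf, Mllt3 and Pdzk1ip1 at 24 h, and DESeq2 those of Mllt3, Mycn and Pdzk1ip1 at 24 h and of Mllt3 and Gata2 at 72 h.

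**Figure D4:**
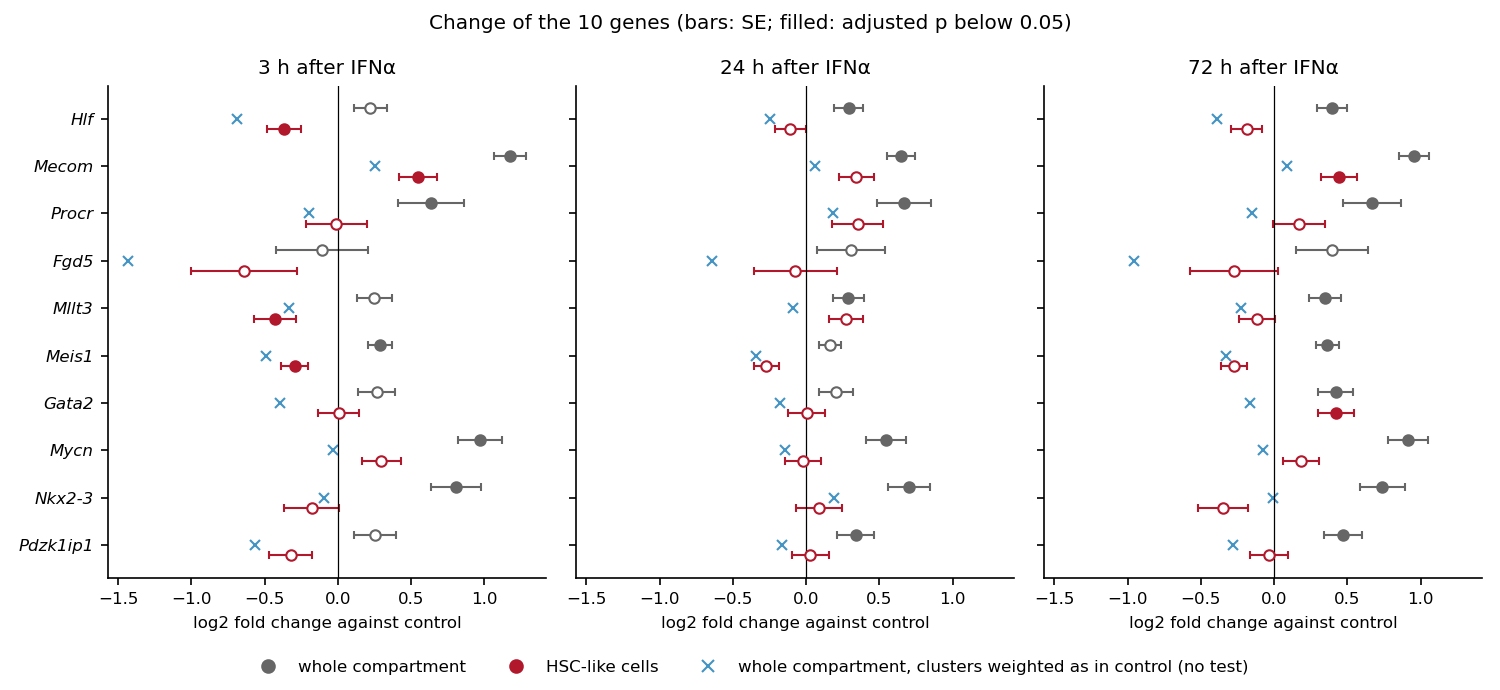
Log2 fold change of each of the 10 genes against control at 3, 24 and 72 h in the whole compartment and in HSC-like cells, with standard errors; filled points passed an adjusted p of 0.05. Mecom is to the right of 0 in both, at 1.17 and 0.55 at 3 h, whereas Meis1 is above 0 in the whole compartment (0.29) and below 0 in HSC-like cells (−0.30).

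In the progenitor classes a member was tested only if enough UMIs were present, which left 9 in LMPP-like, 9 in MK progenitor-like, 5 in erythroid and 4 in myeloid progenitor-like cells. In LMPP-like cells 1 of the 9 tested members fell (Hlf) and 1 rose (Mllt3) at 3 h, where 19.7% of all genes passed in either direction, a share near that of the members. Hlf was at 88.4 to 141 CPM in control mice and 40.5 to 78.1 CPM at 3 h, without overlap, and fell by 0.60 ± 0.13 on the log2 scale (edgeR adjusted p = 0.00084), a call that held without any 1 mouse. At 72 h it fell by 0.40 ± 0.11 (adjusted p = 0.026), again with 4 of 4 mice below all controls, where 6.62% of all genes passed. Meis1 fell by 0.26 ± 0.08 at 24 h (adjusted p = 0.0268, 7.54% of all genes passed) and by 0.27 ± 0.08 at 72 h (adjusted p = 0.0348), both with 4 of 4 mice below control. At 72 h the call of Hlf was lost without control mouse 1, 2 or 3 or mouse 3 or 4 of 72 h (adjusted p up to 0.147), and that of Meis1 without control mouse 2, 3 or 4 or mouse 2 or 3 of 72 h (up to 0.182). The 24 h call of Meis1 was lost without control mouse 2 or 3 or mouse 1 or 4 of 24 h (up to 0.168). By DESeq2 the calls of Meis1 at 24 and 72 h and of Hlf at 72 h did not pass (adjusted p = 0.0997, 0.0991 and 0.0542). Mllt3 was at 16.3, 12.2, 17.0 and 8.57 CPM in control mice, from 50, 38, 55 and 2 UMIs, and at 30.6, 23.1, 24.4 and 21.5 CPM at 3 h, from 31, 24, 54 and 25 UMIs. All 4 mice at 3 h were above control, and the rise was 0.72 ± 0.20 (adjusted p = 0.0076), which passed without any 1 mouse (up to 0.0474).

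In MK progenitor-like cells Pdzk1ip1 was lower at each time point. It was at 136, 171 and 159 CPM in control mice and at 124, 98.8, 83.9 and 85.5 CPM at 3 h. At 24 h it was at 131, 121, 111 and 120 CPM, and at 72 h at 117, 111, 115 and 97.9 CPM. Every treated mouse was below every control mouse, and Pdzk1ip1 fell by 0.68 ± 0.12, 0.35 ± 0.10 and 0.48 ± 0.10 on the log2 scale (edgeR adjusted p = 9.4e-05, 0.0318 and 0.0024), where 10.8%, 3.70% and 3.87% of all genes passed. The falls at 3 and 72 h held without any 1 mouse, and that at 24 h was lost without control mouse 2 or 3 or mouse 2, 3 or 4 of 24 h (adjusted p up to 0.277). Meis1 and Hlf also fell at 3 h, by 0.33 ± 0.10 (adjusted p = 0.0285) and 0.61 ± 0.19 (adjusted p = 0.0366), each with 3 of 4 mice below control. Each of these was lost in 5 of 15 fits without 1 mouse, Meis1 without control mouse 2 or 3 or mouse 1, 2 or 3 of 3 h (adjusted p up to 0.155) and Hlf without control mouse 1 or 3 or mouse 2, 3 or 4 of 3 h (up to 0.186). By DESeq2 neither Meis1 nor Hlf passed at 3 h (adjusted p = 0.0584 and 0.0589).

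In myeloid progenitor-like cells 1 of the 4 tested members passed at 3 h and 1 at 24 h, where 24.1% and 15.1% of all genes passed. At 3 h the share of the members was near that of all genes. Mllt3 rose by 0.71 ± 0.26 at 3 h (edgeR adjusted p = 0.041, 2 of 4 mice above control). Hlf rose by 0.49 ± 0.17 at 24 h (edgeR adjusted p = 0.0491, 3 of 4 above), from 2 to 68 UMIs of Hlf per mouse in control and at 24 h. This class pools clusters 1, 6 and 8, and cluster 8, led by S100a8 and S100a9, held 180 of its 711 cells in control (25.3%), 18 of 252 at 3 h (7.14%) and 58 of 664 at 24 h (8.73%). Without cluster 8, an alternative added after seeing the data, neither call passed, with Mllt3 at 0.62 ± 0.27 at 3 h (adjusted p = 0.107) and Hlf at 0.42 ± 0.18 at 24 h (adjusted p = 0.129). At 72 h none of the 4 tested members passed by edgeR, where 15% of all genes passed. The Mllt3 call was lost without control mouse 2 or 3 or mouse 1 or 3 of 3 h (adjusted p up to 0.177), and the Hlf call in 12 of 16 fits without 1 mouse, holding only without mouse 3 or 4 of 3 h, mouse 4 of 24 h or mouse 1 of 72 h (up to 0.194). By DESeq2 neither the Mllt3 nor the Hlf call passed (adjusted p = 0.0839 and 0.231). In erythroid progenitor-like cells none of the 5 tested members passed by edgeR at 3, 24 or 72 h, where 13.7%, 9.92% and 5.37% of all genes passed. Nearest were Mycn at 24 h (1.28 ± 0.49, edgeR adjusted p = 0.0951, 3 of 4 mice above control) and Pdzk1ip1 at 72 h (−0.51 ± 0.19, adjusted p = 0.118).

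Whether a change differed between the HSC-like class and another class was tested as an interaction over 15 mice, without control mouse 4. Of the 10 members only Mllt3 at 3 h, against LMPP-like cells, passed. Its log2 fold change was lower by 1.09 ± 0.25 in HSC-like than in LMPP-like cells (edgeR adjusted p = 0.019), where 0.758% of all genes passed. It was lost without control mouse 2 (adjusted p = 0.232) and without mouse 1, 3 or 4 of 3 h (0.0721, 0.081 and 0.0534). At 24 and 72 h no member passed against LMPP-like cells, where 0.121% and 0.152% of all genes did. Against MK progenitor-like cells no member passed at any time, where 0.0414% of all genes passed at 3 h and 0.0104% at 24 and at 72 h. The fall of Pdzk1ip1 in MK progenitor-like cells was therefore not shown to differ from HSC-like cells.

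Other genes of the stem cell programme were counted from lists in HSC-like cells. Each count stands beside the share of all genes tested, 9.75% higher and 4.27% lower at 3 h, and 2.97% and 3.28% in either direction at 24 and 72 h. Of 19 stem cell regulators, mostly transcription factors, 2 were lower at 3 h and none higher. One of them was Msi2, an RNA-binding regulator, at −0.32 ± 0.10 (edgeR adjusted p = 0.0259). At 24 h Gfi1b, a transcriptional repressor, was lower, at −0.99 ± 0.18 (adjusted p = 0.00041), and at 72 h none passed. The median over the 19 was −0.12 at 3 h, beside −0.05 over all genes. Of 12 tested surface and receptor genes 2 were higher and 4 lower at 3 h. Ly6a, which encodes Sca-1, rose by 2.28 ± 0.10 on the log2 scale. Itga6, Esam and Cd27, an integrin, an adhesion molecule and a TNF receptor, fell by 0.91, 0.71 and 0.48. Ly6a remained higher at 24 h (1.11 ± 0.10) and was lower than control at 72 h (−0.48 ± 0.11).

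Of 11 tested genes tied to quiescence Ccnd2, a cyclin, was higher and Btg2, an antiproliferative gene, lower at 3 h, at 1.21 ± 0.08 and −1.31 ± 0.32 on the log2 scale, and Txnip and Egr1 were higher at 72 h (0.41 ± 0.12 and 0.91 ± 0.27). None passed at 24 h. Of 21 tested relatives and partners of the members, Max, the dimerisation partner of Mycn, was higher (0.54 ± 0.15) and Mxd4, a Max partner that opposes Myc, lower (−0.81 ± 0.16) at 3 h, and none passed at 24 or 72 h. With library size alone, Max, Txnip and Egr1 did not pass, and at 3 h 5 of the 19 regulators were lower in place of 2 and 5 of the 21 relatives and partners in place of 1. The shares of all genes given for the lists are those with TMM factors. With library size alone the median of all genes was also lower at 3 h, so a fall particular to the lists cannot be read from these counts.

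The scaling mattered most at 3 h. With TMM factors 69.6% of the genes that passed in HSC-like cells at 3 h were higher, and with library size alone 28.9%. The median of all genes moved from −0.05 to −0.26 on the log2 scale. At 72 h the share was 67.8% with TMM factors and 48.8% with library size alone. In the whole compartment at 3 h it was 50.7% and 25.6%, and the median moved from −0.03 to −0.18. Hlf, Meis1 and Mllt3 in HSC-like cells were below 0 and Mecom above 0 at 3 h under both. In the other classes the share of calls that were higher at 3 h was 56.8 to 77.1% with TMM factors and 27.4 to 35.6% with library size alone, an alternative added after seeing the data. At 24 h it was 57.7 to 75.1% and 39.4 to 59.6%, and at 72 h 52.5 to 67.4% and 34.8 to 50.9%. All 12 calls of members in these classes kept their direction with library size alone, and those of Mllt3 and Hlf in myeloid progenitor-like cells did not pass (adjusted p = 0.0823 and 0.0726).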

How the data were processed

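Transcriptomes of HSPCs from 16 mice were measured in 4 libraries, 1 per time point, with 4 hashtagged mice each. The authors aligned reads to mm10 with Cell Ranger 3.1.0 and deposited raw UMI counts per gene and cell barcode, without normalization, and Seurat's hashtag call of each barcode. The gene annotation behind the counts is not given in the sources used here. The 10 members and the gene lists were chosen with earlier results of these data known.

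Barcodes with a single hashtag call, at least 700 genes and at most 5% mitochondrial UMIs were kept, after the study's limits. Multiplets and negatives were removed, while doublets within a mouse remain. Control cells were clustered with Scanpy 1.11.5 (500 variable genes by Pearson residuals, 10 components, 15 neighbors, Leiden resolution 0.8) and clusters were named from marker lists. Labels went to the treated cells by nearest neighbors after a mutual nearest neighbor correction over 2000 variable genes per library. The members were left out of both steps. The class is rebuilt and need not match the study's.

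Counts were summed per mouse over all cells and per class (at least 10 cells). A mouse held 1102706 to 26446327 UMIs. Tests used edgeR 4.0.16 (filterByExpr, TMM, quasi-likelihood F test over all mice) under R 4.3.3, with Benjamini-Hochberg adjustment over all genes tested. The study used edgeR's likelihood ratio test in each cluster, which was run as an alternative. CPM values use the TMM factors. p-values measure the spread between the mice of a library. Shares of positive cells were taken at 5000 UMIs per cell. Exact permutation tests, two-sided, compared the shares of HSC-like cells. The scripts were tested on simulated counts. In a simulated HSC-like comparison at 3 h, 56.1% of 2-fold and 94.9% of 4-fold changes were recovered, and 2.63% of calls were false. Changes below 2-fold were not simulated, so how often the test misses them is not known. The simulation held 196 changed genes among 9134 and no shift in scale between groups. Its share of false calls therefore does not cover the choice of scaling at 3 h. Alternatives were DESeq2 1.42.0, other scalings, no filter, no cells of high UMIs, other label transfers, a trend over transcript length, the hashtag number as a block and leaving out each mouse. Named list genes are, per list and time point in HSC-like cells, up to 3 with the largest rise and 3 with the largest fall among those that passed. Genes alike are the 3 of highest correlation per member. Some genes that these rules name are not reported here. The flow cytometry, qPCR and blood counts were not analysed here.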

Additional observations from a re-analysis of the deposited data

Results flagged for a closer look

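Single mice stood apart from their group by Dixon's test in 6 of 104 groups of 4 mice (5.77%), where chance gives about 1 in 20. In the whole compartment control mouse 4, with 58 cells, was at 81.8 CPM for Meis1 against 70.2 to 72.1 CPM in the other control mice, and at 33.1 CPM for Mycn against 18.9 to 21.0 CPM. Mouse 4 of 72 h was at 149 CPM for Mycn in HSC-like cells, against 124 to 126 CPM. Mouse 1 of 72 h had Meis1 in 71.2% of its HSC-like cells, against 62.6 to 63.1%. Mouse 3 of 24 h had Nkx2-3 in 23.1% of its HSC-like cells, against 30.3 to 31.8%, and mouse 4 of 72 h had Pdzk1ip1 in 58.9%, against 50.5 to 51.4%. Both shares were taken at 5000 UMIs per cell.

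The change of Mllt3 at 3 h differed between 2 classes. It was lower by 1.09 on the log2 scale in HSC-like than in LMPP-like cells (−1.09 ± 0.25, edgeR adjusted p = 0.019), a difference that was −1.19 with library size alone and was lost without control mouse 2 or without mouse 1, 3 or 4 of 3 h.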

How the results depend on the processing

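Hashtag numbers 1 to 4 recur at each time point but name antibodies on different mice, and 7 of 16 mice in the whole compartment and 5 of 15 in the HSC-like class correlated best with their own number. With that number as a replicate block, added after seeing the data, 5, 7 and 9 members passed at 3, 24 and 72 h in the whole compartment and 4, 0 and 0 in the HSC-like class. The number of members that passed was within 1.5 times the values given, except as follows. In the whole compartment library size alone gave 3 at 3 h and 4 at 24 h in place of 5 and 7, and DESeq2 4 at 24 h. In HSC-like cells DESeq2 gave 1 at 3 h in place of 4 (Mecom). Clustering with the members kept gave 1 at 24 h in place of 0 (Meis1, lower) and 4 at 72 h in place of 2 (Gata2, Hlf, Mecom and Meis1). The members then helped to define the class in which they were tested. Both the likelihood ratio test (Gata2) and library size alone (Meis1, lower) gave 1 at 72 h. In the other classes together DESeq2 gave 3, 1 and 1 at 3, 24 and 72 h in place of 6, 3 and 3. Without 1 mouse in turn, the whole compartment gave 4 to 7, 3 to 8 and 7 to 9, the HSC-like class 1 to 5, 0 and 0 to 2, the other classes 4 to 7, 0 to 4 and 1 to 4, and the interaction 0 to 1 at 3 h and 0 at 24 and 72 h. The HSC-like share differed by 8.15 to 10.4, 2.46 to 4.31 and 6.58 to 8.43 points, and by 15.1, 6.69 and 12.5 points with the members kept in the clustering, where 24 h passed (exact permutation p = 0.0286). The share of all genes that passed in each alternative is not given here. A change particular to the members therefore cannot be read from the member counts. The causes were not tested.

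Weighting the clusters as in control, chosen after seeing the data, gave the opposite direction for 16 of the whole-compartment values that had passed (5 at 3 h, 7 at 24 h and 9 at 72 h). Only the members were weighted, so how many other genes would turn is not known. The weighting also replaces TMM factors by library size, on which scale all 16 were above 0 unweighted (0.09 to 0.78). At 3 h these were Procr (−0.20), Meis1 (−0.49), Mycn (−0.032) and Nkx2-3 (−0.092), and at 24 h Hlf (−0.25), Mllt3 (−0.089), Mycn (−0.14) and Pdzk1ip1 (−0.16). At 72 h they were Hlf (−0.39), Procr (−0.15), Mllt3 (−0.22), Meis1 (−0.33), Gata2 (−0.16), Mycn (−0.079), Nkx2-3 (−0.010) and Pdzk1ip1 (−0.28). Without control mouse 4 Mycn at each time and Mllt3 at 24 h were above 0, and Nkx2-3 at 72 h was above 0 without control mouse 2 or 3 or mouse 1 or 2 of 72 h. No other alternative turned the direction of a value that had passed. No HSC-like cell was among the 5% of cells with the most UMIs, so that this alternative changed nothing there, and each HSC-like cluster on its own was not run, as there was 1. Depth limits Fgd5 most, and each time point is 1 library.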

Other observations

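The other gene lists were also counted over the whole compartment, where 38.8%, 28.3% and 37.4% of all genes passed at 3, 24 and 72 h. The HSC-like share was larger there at 3 and 72 h, and its difference at 24 h did not pass. Of the 19 stem cell regulators, mostly transcription factors, 10 were higher and 0 lower at 3 h, 9 and 1 at 24 h, and 13 and 0 at 72 h, with a median log2 fold change of 0.23, 0.23 and 0.27, beside −0.03, 0.00 and 0.02 over all genes. With library size alone, to which the shares of all genes above do not apply, 4 were higher and 2 lower at 3 h. Of 12 stem cell surface and receptor genes 5 were higher and 1 lower at 3 h, 11 and 0 at 24 h, and 9 and 0 at 72 h. Of 12 quiescence genes 5 were higher and 1 lower at 3 h, 5 and 0 at 24 h, and 8 and 0 at 72 h. The 23 tested relatives and partners of the members moved in both directions at 3 h, with 6 higher and 7 lower, followed by 3 and 2 at 24 h and 6 and 1 at 72 h. The 6 interferon response genes were all higher at 3 and 24 h, and 1 was lower at 72 h.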
